A study of Mus musculus with 6 samples.

Results

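The 35 genes described here act in the repair of DNA interstrand crosslinks and in homologous recombination, and they were taken by symbol from a fixed list of 35 names. All 35 were found among the 24110 genes of the deposited table, and all 35 had enough reads to be tested. Their expression was read from RNA sequencing of hematopoietic stem cells, which renew all blood lineages and were sorted from bone marrow of C57BL/6 mice by the gate Lineage- Sca-1+ CD48- CD150+. In the Prmt5 KO group the floxed Prmt5 gene had been deleted (Prmt5Δ/Δ), and marrow was taken on day 7 after induction. In the Prmt5 fl/fl group the floxed gene was undeleted, and these mice were littermates of matched sex. There were 3 libraries per group, each an independent sample from the pooled marrow of 2 mice. The sources used here do not name the recombinase or the inducing agent, nor do they say whether Prmt5 fl/fl mice received it. Prmt5 encodes an arginine methyltransferase known for modifying spliceosomal Sm proteins, and the study's title concerns its part in splicing. The files hold 1 value per gene and library, so splicing of the repair genes was not analysed here.

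A crosslink between the strands of DNA blocks replication forks. In the Fanconi anemia pathway a core complex of FANC proteins attaches ubiquitin to the FANCD2 and FANCI proteins, nucleases then cut the crosslink out, and the broken DNA is restored by homologous recombination, in which end resection is followed by the work of BRCA1, PALB2, BRCA2 and the BCDX2 and CX3 complexes. In people, inherited loss of this pathway causes Fanconi anemia, a disease of bone marrow failure, and in mice several of its genes are needed for hematopoietic stem cells to persist.

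Library totals ran from 37834096 to 41812565 reads in genes in the Prmt5 KO group and from 42213314 to 44704636 in the Prmt5 fl/fl group, and all values below are reads scaled by the authors to 1 common total. Prmt5 itself was at 1056, 1049 and 897 scaled reads in Prmt5 KO replicates 1 to 3, against 6076, 6024 and 6010 in Prmt5 fl/fl replicates 1 to 3, so every library matched its label. Slamf1, which encodes CD150 of the sorting gate, was at 2731 to 3408 in Prmt5 KO and 3127 to 4489 in Prmt5 fl/fl libraries, while Cd48 was at 492 to 676 in Prmt5 KO and 446 to 757 in Prmt5 fl/fl libraries. The summed level of 12 granulocyte and monocyte markers was 826285 in Prmt5 KO replicate 3, against 84141 to 112671 in the other Prmt5 KO libraries and 61544 to 256008 in the Prmt5 fl/fl libraries. Single markers were split, with S100a8, S100a9, Ltf, Camp, Lyz2, Csf3r and Ly6c2 highest in Prmt5 KO replicate 3. Mpo, Elane, Ctsg and Csf1r were highest in Prmt5 fl/fl replicate 1, and Prtn3 in Prmt5 fl/fl replicate 3. The summed level of 12 red cell precursor markers was 2668 to 3177 in Prmt5 KO and 4402 to 10892 in Prmt5 fl/fl libraries. Of these, 8 were tested and 2 fell in Prmt5 KO (Klf1 and Tspan33; limma, adjusted p = 0.0476 and 0.0477), where limma called 0.73% of all genes tested. All 8 had a log2 fold change below 0 (55.2% of all genes tested), with a median of -2.56. At an unadjusted limma p below 0.05, 5 of the 8 were lower and 0 higher (13.6% and 4.58% of all genes tested). The globin genes Hba-a1, Hba-a2, Hbb-bs and Hbb-bt were at 0 throughout. The summed level of 14 megakaryocyte and platelet markers was 56503 to 83657 in Prmt5 KO and 103039 to 123866 in Prmt5 fl/fl libraries, with none at 0 throughout. Of these, Itga2b and Rab27b fell (limma, adjusted p = 0.0195 and 0.0475; 0.73% of all genes tested were called), and 11 of the 14 had a log2 fold change below 0 (55.2% of all genes tested). At an unadjusted limma p below 0.05, 6 were lower and 1 was higher (13.6% and 4.58% of all genes tested). The higher gene was Selp, at 4856 to 7962 in Prmt5 KO and 3157 to 4690 in Prmt5 fl/fl libraries. The part of these markers in the values of the repair genes was not tested. In sorted bulk samples, fewer cells of one kind and less RNA per cell cannot be told apart.

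Prmt5 fl/fl replicate 3 stood apart from the other libraries in a way that followed gene length. Across the 14113 genes tested, the difference of this library from the mean of the other Prmt5 fl/fl libraries went down with the deposited gene length (Spearman's rho across genes -0.57), whereas the same measure for the Prmt5 KO replicates 1 to 3 gave -0.26, 0.049 and 0.19. For Prmt5 fl/fl replicates 1 and 2, whose comparison includes replicate 3, it gave 0.45 and 0.48. Across the 35 repair genes rho was -0.65 with length and 0.11 with the GC content of the transcript. These are descriptions over genes that share 1 library and not tests. Of the 5 repair genes shorter than 2 kb, 0 were lower in Prmt5 fl/fl replicate 3 than the mean of the other Prmt5 fl/fl libraries, with a median log2 difference of 0.43. Of the 10 that were 5 kb or longer, 9 were lower, with a median of -0.35. Over all genes tested the medians of these length classes were 0.41 and -0.73, with 767 of 4416 and 2067 of 2455 genes lower. The results below are therefore given with and without this library.

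**Figure D1:**
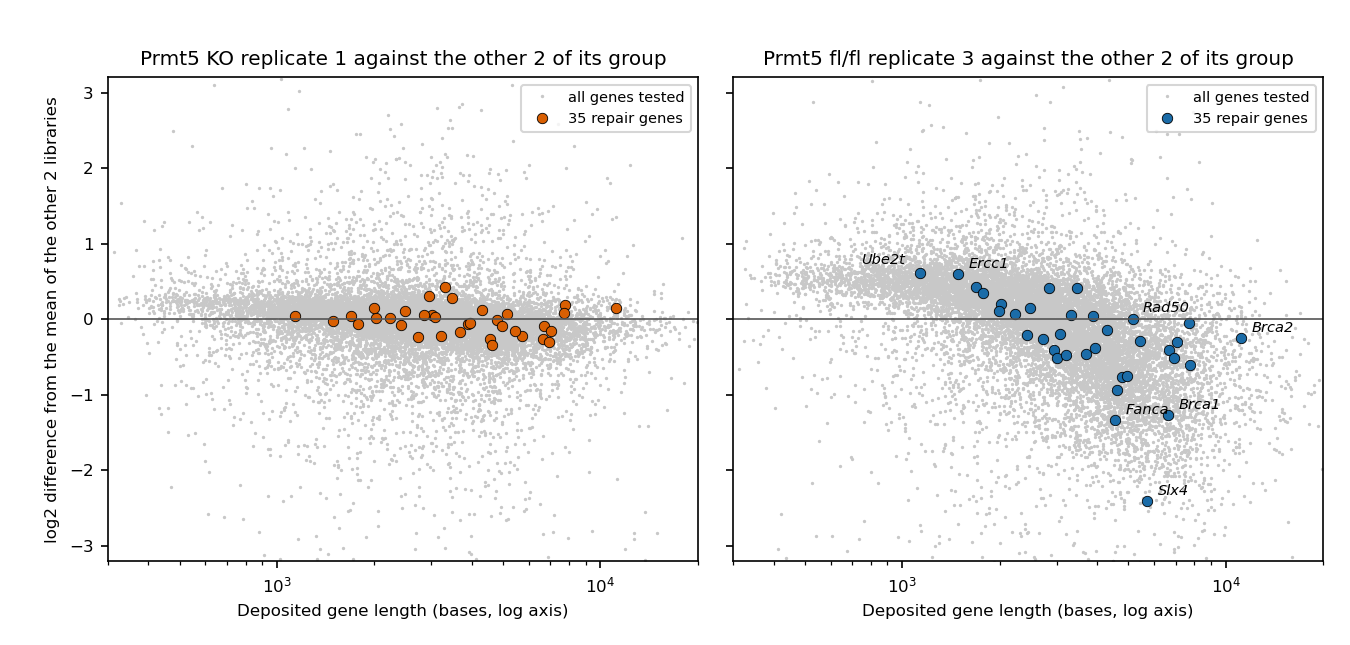
Log2 difference of 1 library from the mean of the other 2 of its group (vertical axis) against the deposited gene length in bases (horizontal log axis), for Prmt5 KO replicate 1 (left) and Prmt5 fl/fl replicate 3 (right). Grey points are the 14113 genes tested, large points are the 35 repair genes, and genes beyond the vertical range are not drawn. In Prmt5 fl/fl replicate 3 long repair genes such as Slx4, Fanca and Brca1 lie low and short ones such as Ube2t and Ercc1 lie high, while Rad50, at 5153 bases, lies close to 0.

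By limma, the main test, none of the 35 genes passed an adjusted p of 0.05 for a difference between the genotypes. It called 0 of them over all genes (limma, smallest adjusted p = 0.0989), where it called 0.73% of all genes tested, and edgeR on the recovered reads also called 0 (smallest adjusted p = 0.124). DESeq2, which called 4.36% of all genes lower in Prmt5 KO, called 3 repair genes lower, namely Fance, Fancl and Rad50 (DESeq2, adjusted p = 0.0257, 0.0308 and 0.0476). Without adjustment, 10 of the 35 had a limma p below 0.05, all with lower values in Prmt5 KO, against 13.6% of all genes tested in that direction and 4.58% in the other. The 3 Prmt5 KO values lay below the 3 Prmt5 fl/fl values for 11 of the 35 genes (19.9% of all genes tested) and above them for 2 (8.3% of all genes tested). The median log2 fold change, Prmt5 KO over Prmt5 fl/fl, was -0.088 over the 35 genes and -0.048 over all genes tested, with 21 of the 35 below 0 (55.2% of all genes tested).

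Leaving out Prmt5 fl/fl replicate 3 lowered the median fold change, while single genes moved in both directions. Of the 35 genes, 22 were lower in that library than the mean of the other Prmt5 fl/fl libraries, against 6919 of the 14113 genes tested. Without it, 28 of the 35 had a log2 fold change below 0 (59.6% of all genes tested), the median was -0.20 against -0.075 over all genes tested, and the smallest limma adjusted p was 0.0524, for Rad50. At an unadjusted p below 0.05 limma placed 12 of the 35 lower and 0 higher, against 16.3% and 7.5% of all genes tested. These 12 were the 10 of the full set together with Fancg and Rad51d. The Prmt5 KO values lay below both remaining Prmt5 fl/fl values for 16 of the 35 genes (29.5% of all genes tested) and above both for 2 (14.8% of all genes tested). Within the library pairs that share a replicate number and a title prefix, the median log2 difference over the 35 genes was -0.22, -0.095 and -0.099 for numbers 1 to 3, and over all genes tested it was -0.095, -0.055 and -0.10.

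Other single libraries also moved the count. Without Prmt5 KO replicate 3, the library with the highest summed granulocyte and monocyte markers, limma placed 4 of the 35 lower at an unadjusted p below 0.05. The share of all genes tested was 9.63%. The count was 5 without Prmt5 KO replicate 1 (8.77% of all genes tested) and 6 without Prmt5 fl/fl replicate 2 (10.4% of all genes tested). Fance, Fancl, Mus81 and Rad50 were the 4 genes below 0.05 in each of the 6 fits that left out 1 library, all with lower values in Prmt5 KO, against 6.7% of the 13801 genes tested in all of these fits. After log2 values were centred within bins of gene length, a step chosen after seeing the data, 9 of the 35 were lower (12.9% of all genes tested) and Eme1 was higher (11.3% of all genes tested). These 9 were the 10 of the full set less Xrcc3.

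**Figure D2:**
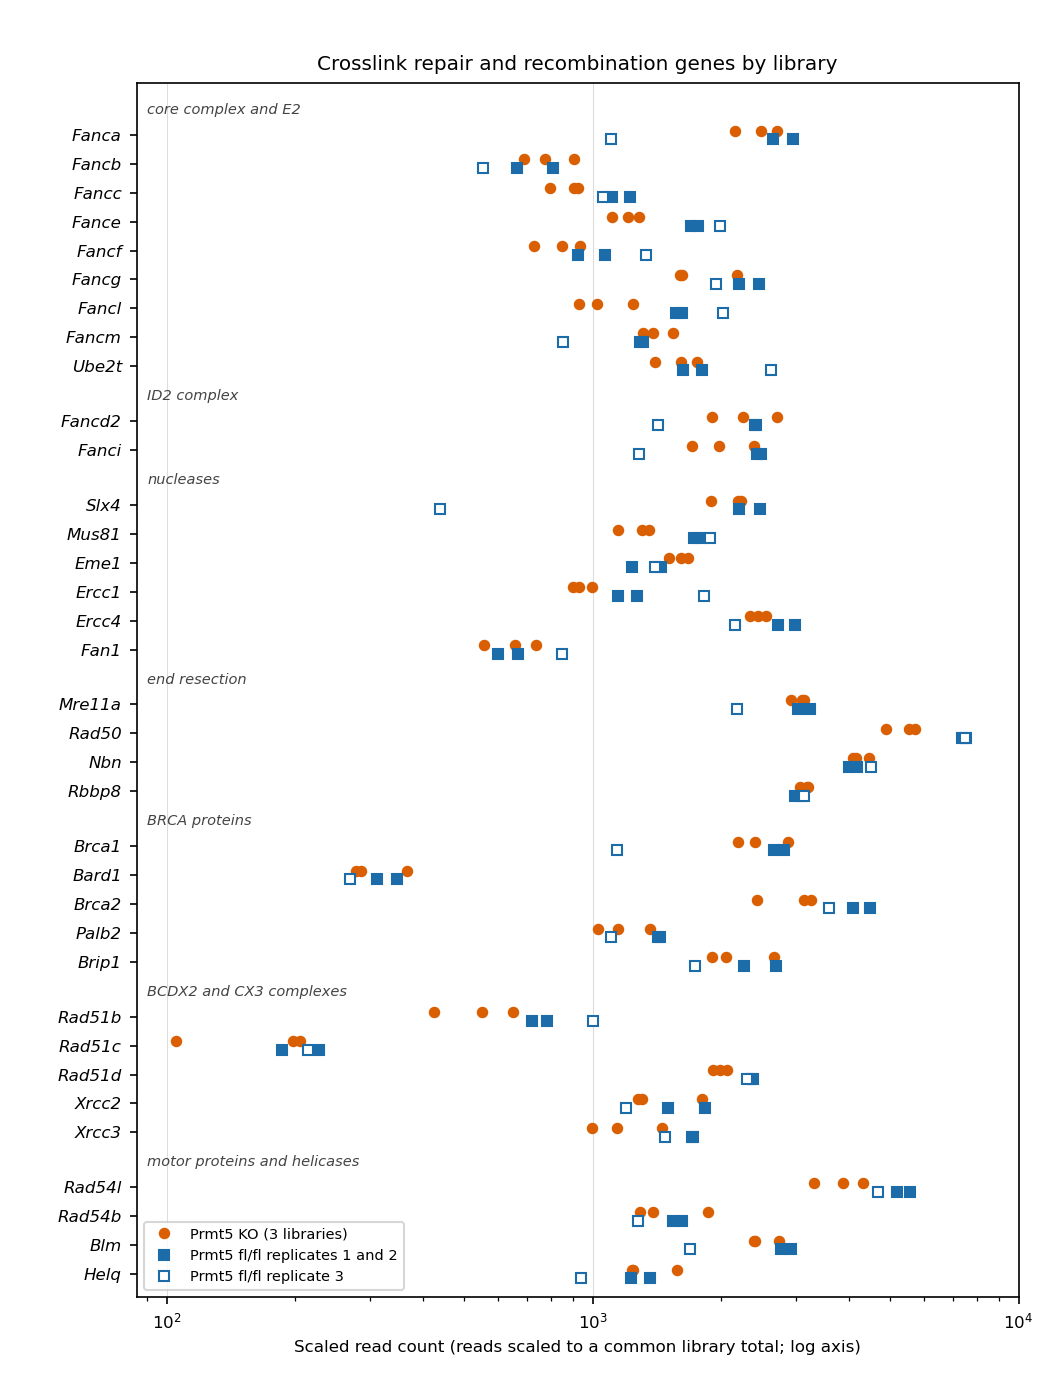
Scaled read counts (horizontal log axis) of the 35 genes, grouped by role, in the 3 Prmt5 KO libraries (orange circles), in Prmt5 fl/fl replicates 1 and 2 (filled blue squares) and in Prmt5 fl/fl replicate 3 (open squares). The circles lie left of all squares for 11 genes, among them Fance, Fancl, Mus81, Rad50 and Brca2, and the open square lies far left of the filled ones for Slx4, Fanca and Brca1.

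The core complex that ubiquitinates FANCD2 and FANCI held the lowest fold change of the set, that of Fancl. Fancl, the ubiquitin ligase subunit (GRCm38/mm10 chromosome 11, 26386135 to 26471876, with the same build below), was at 1026, 1242 and 927 scaled reads in Prmt5 KO replicates 1 to 3, against 1569, 1626 and 2025 in Prmt5 fl/fl replicates 1 to 3. Every Prmt5 KO value was below every Prmt5 fl/fl value, and the log2 fold change was -0.71 with an SE of 0.18 (limma, adjusted p = 0.107). With Prmt5 fl/fl replicate 3 left out, it was -0.59 (limma, adjusted p = 0.0792). Fance, the subunit that binds FANCD2 (chromosome 17, 28313519 to 28326572), was at 1211, 1288 and 1114 in Prmt5 KO, against 1698, 1773 and 1993 in Prmt5 fl/fl. Here too the groups did not overlap, with means of 1204 ± 87.4 in Prmt5 KO and 1822 ± 153 in Prmt5 fl/fl (SD, n = 3 each). Its log2 fold change was -0.60 with an SE of 0.14 (limma, adjusted p = 0.0989), and -0.53 with Prmt5 fl/fl replicate 3 left out (limma, adjusted p = 0.0622).

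Fancc, which forms a subcomplex with Fance and Fancf, was at 923, 905 and 795 in Prmt5 KO, against 1224, 1111 and 1058 in Prmt5 fl/fl. Its log2 fold change was -0.37, and -0.42 without Prmt5 fl/fl replicate 3 (limma, adjusted p = 0.254 and 0.125). Its groups did not overlap, whereas those of Fancf did, at 729 to 937 in Prmt5 KO and 922 to 1335 in Prmt5 fl/fl (log2 fold change -0.39; limma, adjusted p = 0.334). Fancg was at 1601 to 2180.0 in Prmt5 KO and 1946 to 2454 in Prmt5 fl/fl libraries, and its log2 fold change was -0.30 with all libraries and -0.38 without Prmt5 fl/fl replicate 3 (limma, adjusted p = 0.413 and 0.199). Fanca, the partner of Fancg in the complex, turned its sign with that library. It was at 2159, 2710.3 and 2484 in Prmt5 KO, against 2658, 2950 and 1108 in Prmt5 fl/fl, and the last of these values lay far below the other 5. The log2 fold change was 0.25 with all libraries and -0.20 without Prmt5 fl/fl replicate 3 (limma, adjusted p = 0.739 and 0.377).

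Fancm, the DNA translocase that anchors the core complex on DNA, was among the 2 genes with every Prmt5 KO value above every Prmt5 fl/fl value. It was at 1546, 1387 and 1317 in Prmt5 KO, against 1292, 1313 and 855 in Prmt5 fl/fl, so the groups were separated only by the gap between 1317 and 1313. For Fancm the log2 fold change was 0.32, and 0.12 without Prmt5 fl/fl replicate 3 (limma, adjusted p = 0.446 and 0.592). Fancb, the X-linked core subunit, overlapped between the groups at 692 to 905 in Prmt5 KO and 552 to 809.8 in Prmt5 fl/fl. Ube2t, the ubiquitin-conjugating enzyme that works with FANCL, was at 1405 to 1755 in Prmt5 KO, against 1629, 1804 and 2629.5 in Prmt5 fl/fl, and its log2 fold change of -0.32 was -0.11 without the third of these (limma, adjusted p = 0.455 and 0.640). Of the 9 genes of the core complex and its conjugating enzyme, 3 were lower at an unadjusted p below 0.05 with all libraries (13.6% of all genes tested) and 4 without Prmt5 fl/fl replicate 3 (16.3% of all genes tested).

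Fancd2 and Fanci encode the paired proteins that receive ubiquitin and mark the crosslink for repair. Fancd2 was at 2260.4, 2705 and 1911 in Prmt5 KO, against 2424, 2401 and 1424 in Prmt5 fl/fl. Fanci was at 1714, 2394 and 1983 in Prmt5 KO, against 2432, 2484 and 1287 in Prmt5 fl/fl. In both genes the third Prmt5 fl/fl library was below every other value and the groups overlapped. The log2 fold changes were 0.16 for Fancd2 and 0.022 for Fanci, and they were -0.088 and -0.29 without that library (limma, adjusted p = 0.762 and 0.287).

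Among the nucleases, Mus81 and Ercc1 had Prmt5 KO values below all Prmt5 fl/fl values (19.9% of all genes tested), and Eme1 had them above (8.3% of all genes tested). Mus81, the catalytic subunit of a structure-specific endonuclease (chromosome 19, 5482345 to 5488402), was at 1360.0, 1304 and 1148 in Prmt5 KO, against 1784, 1733 and 1889 in Prmt5 fl/fl. Its log2 fold change was -0.51 with a standard error of 0.14, and -0.47 without Prmt5 fl/fl replicate 3 (limma, adjusted p = 0.124 and 0.0815). Eme1, the regulatory subunit that pairs with MUS81, had every Prmt5 KO value above every Prmt5 fl/fl value, at 1612, 1679 and 1511 in Prmt5 KO, against 1446, 1237 and 1404 in Prmt5 fl/fl. Its log2 fold change was 0.23, and 0.26 without Prmt5 fl/fl replicate 3 (limma, adjusted p = 0.419 and 0.253). The difference between the fold changes of these partners was not tested.

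Ercc1 pairs with ERCC4, also named XPF, in an endonuclease that unhooks crosslinks. Ercc1 was at 929.9, 999 and 900.1 in Prmt5 KO, against 1146, 1269 and 1831 in Prmt5 fl/fl, where the third library lay well above the others. The log2 fold change was -0.56 with a standard error of 0.20, and -0.36 without that library (limma, adjusted p = 0.210 and 0.153). Ercc4 overlapped at 2345 to 2556 in Prmt5 KO and 2159 to 2990 in Prmt5 fl/fl. Its log2 fold change was -0.088, and -0.22 without Prmt5 fl/fl replicate 3 (limma, adjusted p = 0.798 and 0.225). Slx4, the scaffold that holds these nucleases, showed the widest gap within a group. It was at 1895, 2235 and 2192 in Prmt5 KO, against 2205, 2471 and 438 in Prmt5 fl/fl. The log2 fold change of 0.65, the highest among the 35 genes, had a standard error of 0.60 (limma, adjusted p = 0.597), and without Prmt5 fl/fl replicate 3 it was -0.15 (limma, adjusted p = 0.475). Fan1, a nuclease recruited by FANCD2, overlapped at 558 to 735 in Prmt5 KO and 599 to 846 in Prmt5 fl/fl.

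Of the 4 genes of end resection, Rad50 alone had groups that did not overlap, with Prmt5 KO lower (19.9% of all genes tested). Rad50, the ATPase of the MRE11-RAD50-NBN complex that senses DNA breaks (chromosome 11, 53649519 to 53707319), was at 5543, 5701 and 4899 in Prmt5 KO, against 7529, 7366 and 7483 in Prmt5 fl/fl. The Prmt5 fl/fl values lay close together and above every Prmt5 KO value, with means of 5381 ± 425 in Prmt5 KO and 7459 ± 83.9 in Prmt5 fl/fl (SD, n = 3 each). The log2 fold change was -0.47 with and without Prmt5 fl/fl replicate 3 (limma, adjusted p = 0.101 and 0.0524), and at 5153 bases this long gene differed by a log2 value of 0.0070 between that library and the mean of the other Prmt5 fl/fl libraries. Its partners overlapped between the groups. Mre11a, the nuclease of the complex, averaged 3054 ± 112 in Prmt5 KO and 2820.2 ± 556 in Prmt5 fl/fl (SD, n = 3 each), and Nbn averaged 4234 ± 201 in Prmt5 KO and 4231 ± 262 in Prmt5 fl/fl (SD, n = 3 each). Rbbp8, which encodes the resection factor CtIP, averaged 3157 ± 72.4 in Prmt5 KO and 3066 ± 75.8 in Prmt5 fl/fl (SD, n = 3 each). The limma adjusted p of these 3 genes ran from 0.704 to 0.994.

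**Figure D3:**
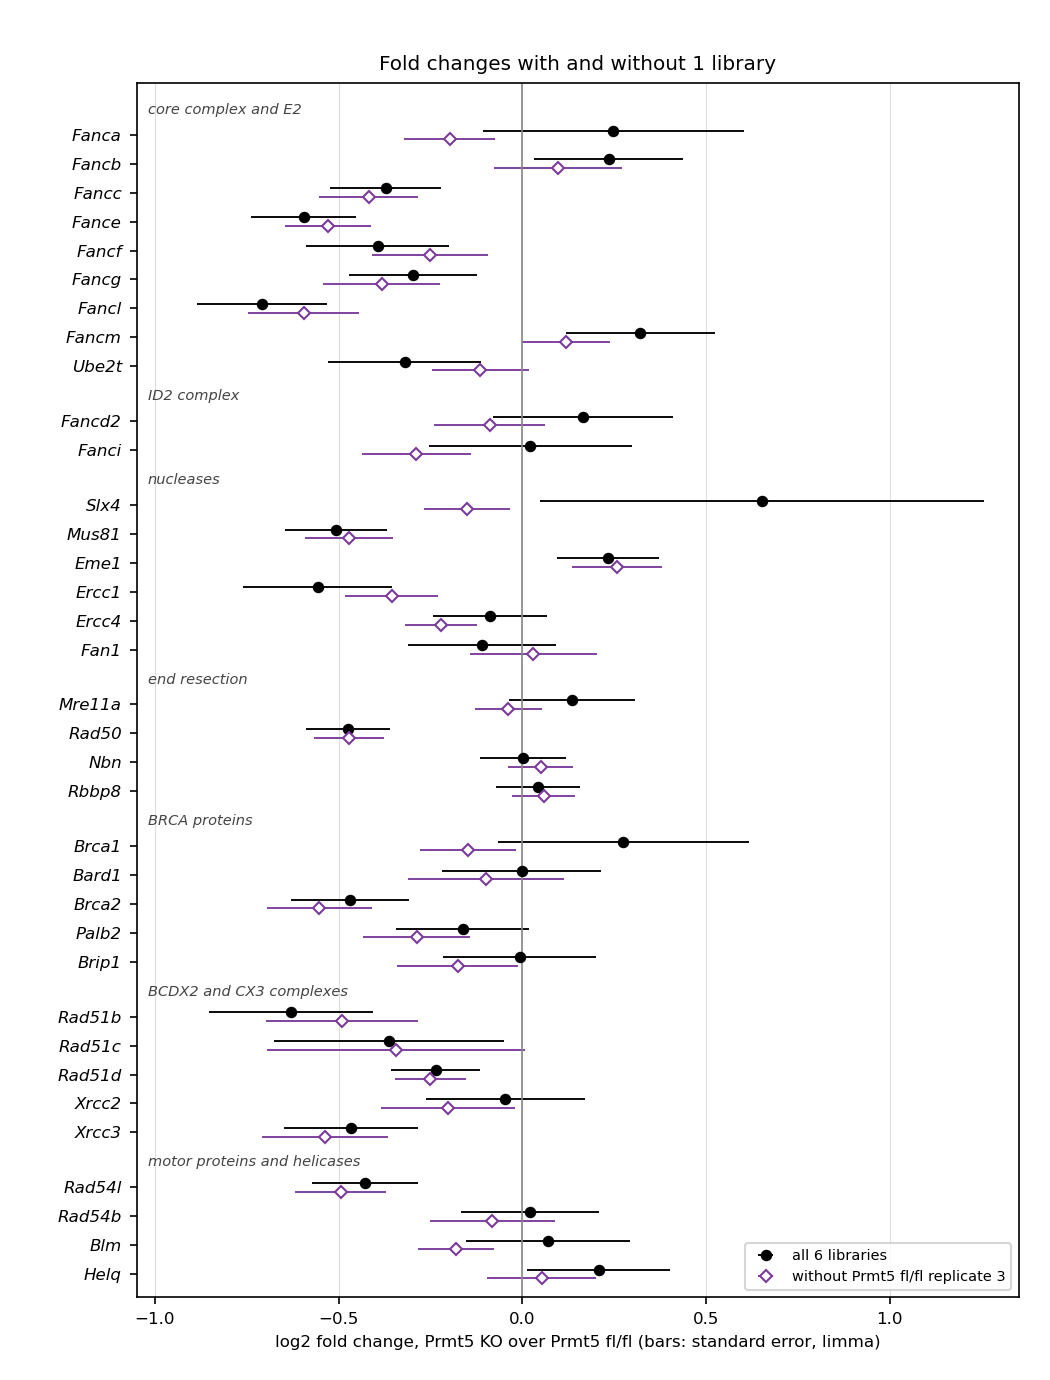
Log2 fold change, Prmt5 KO over Prmt5 fl/fl, of each of the 35 genes from the limma fit on all 6 libraries (black circles) and without Prmt5 fl/fl replicate 3 (open diamonds), with bars of 1 standard error. Without that library 28 of the 35 estimates lie below 0, against 21 with it, and the black bars of Slx4, Fanca and Brca1 are the longest.

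Among the BRCA proteins, which act once ends are resected, Brca2 had the lowest fold change. Brca2, a tumour suppressor needed for homologous recombination (chromosome 5, 150522630 to 150570329), was at 3131, 3264 and 2432 in Prmt5 KO, against 4477, 4092 and 3596 in Prmt5 fl/fl. The groups did not overlap, and the log2 fold change was -0.47 with a standard error of 0.16, and -0.55 without Prmt5 fl/fl replicate 3 (limma, adjusted p = 0.193 and 0.0821). Brca1 was at 2191, 2873 and 2412 in Prmt5 KO, against 2667, 2822 and 1138 in Prmt5 fl/fl, and like Fanca it had its lowest value in Prmt5 fl/fl replicate 3 (log2 fold change 0.27, and -0.15 without that library; limma, adjusted p = 0.695 and 0.532). Its partner Bard1 was among the lowest genes per length and averaged 310.0 ± 48.8 in Prmt5 KO and 309.7 ± 39.6 in Prmt5 fl/fl (SD, n = 3 each). Palb2, the bridge between BRCA1 and BRCA2, and Brip1, a helicase that binds BRCA1, had log2 fold changes of -0.16 and -0.0074, and -0.29 and -0.18 without Prmt5 fl/fl replicate 3 (limma, adjusted p = 0.284 and 0.556).

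Promoters of 28 of the 35 genes could be matched in RefSeq (build GRCm38.p6), as windows of 250 bases before to 50 after a transcription start. They were searched on both strands for the site of E2F, the factor family that drives genes of DNA synthesis, spelled TTTCCCGC, TTTCGCGC, TTTGCCGC or TTTGGCGC, and for the cell cycle element CHR, spelled TTTGAA or TTCGAA. An E2F match was found for 4 of the 28 genes (14.3%), against 4.5% of 10537 tested genes with a promoter and 2.6% of all 27025 genes with a promoter. A CHR match was found for 3 of the 28 (10.7%), against 16.4% of the tested genes and 21.7% of all genes with a promoter. Among the genes with lower values in Prmt5 KO at an unadjusted p below 0.05, 1 of 9 held an E2F match, namely Brca2, against 3 of the 19 others, namely Fancg, Rad51c and Bard1. A CHR match was held by 1 of these 9, Rad51b, against 2 of the 19 others, Eme1 and Bard1. Rad50, also lower at that p, had no matched promoter. The 250 bases before the Brca2 start are shown because it was the 1 gene of these 9 with an E2F match (chr5:150522371-150522620, plus strand, capitals marking the match, 168 bases before the start and read on the minus strand).
Brca2: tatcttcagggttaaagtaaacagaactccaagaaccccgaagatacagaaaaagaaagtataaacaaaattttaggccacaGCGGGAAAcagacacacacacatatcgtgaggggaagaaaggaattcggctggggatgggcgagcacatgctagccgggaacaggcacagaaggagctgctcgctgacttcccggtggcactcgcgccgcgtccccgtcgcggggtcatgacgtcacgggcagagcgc
These matches are descriptions of letters in a window, and factor binding was not measured.

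All 5 genes of the BCDX2 and CX3 complexes, which act in the strand exchange of recombination, had log2 fold changes below 0, from -0.63 to -0.046, and 0 passed the threshold (limma), though Xrcc2 lay above 0 with TMM or median-of-ratios factors, edgeR, DESeq2 or length centring. Rad51b was at 549, 652 and 424 in Prmt5 KO, against 721, 781 and 1001 in Prmt5 fl/fl (log2 fold change -0.63, and -0.49 with the third left out; limma, adjusted p = 0.203 and 0.209). Xrcc3, whose product pairs with that of Rad51c, was at 1139, 1458 and 995 in Prmt5 KO, against 1721, 1712 and 1481 in Prmt5 fl/fl (log2 fold change -0.47, and -0.54 without that library; limma, adjusted p = 0.234 and 0.122). Neither gene had overlapping groups, and 19.9% of all genes tested were apart in that direction. Rad51d was also apart, at 1917 to 2067 in Prmt5 KO and 2300.2 to 2386 in Prmt5 fl/fl, with a smaller log2 fold change of -0.24 (limma, adjusted p = 0.353). Xrcc2 overlapped at 1280.5 to 1806 in Prmt5 KO and 1199.9 to 1841 in Prmt5 fl/fl, and Rad51c, with 105 to 205 scaled reads in Prmt5 KO and 187 to 228 in Prmt5 fl/fl, was the gene with the fewest reads of the set.

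Of the motor proteins and helicases, Rad54l alone had groups that did not overlap, with Prmt5 KO lower (19.9% of all genes tested). Rad54l, a DNA translocase of strand exchange (chromosome 4, 116094264 to 116123690), was at 3874, 4306 and 3315 in Prmt5 KO, against 5564, 5178 and 4683 in Prmt5 fl/fl. For Rad54l the log2 fold change was -0.43 with a standard error of 0.14, and -0.49 without Prmt5 fl/fl replicate 3 (limma, adjusted p = 0.182 and 0.0779). Its relative Rad54b averaged 1515 ± 306 in Prmt5 KO and 1482 ± 179 in Prmt5 fl/fl (SD, n = 3 each). Blm, the helicase mutated in Bloom syndrome, was at 2396 to 2742 in Prmt5 KO, against 2763, 2930 and 1691 in Prmt5 fl/fl, with a log2 fold change of 0.070 that was -0.18 without the third (limma, adjusted p = 0.891 and 0.340). Helq, a helicase of crosslink repair, overlapped at 1239 to 1576 in Prmt5 KO and 938 to 1361 in Prmt5 fl/fl.

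In levels per length, measured as mean scaled reads per kilobase of the deposited gene length, the 35 genes spanned 51.2 to 1699.6 in Prmt5 KO and 56.9 to 1784 in Prmt5 fl/fl. Their median of 448 in Prmt5 fl/fl was close to the median of 453 over all genes tested, and 17 of the 35 were above it. The highest per length in Prmt5 fl/fl were Ube2t at 1784, Nbn at 1698, Rad54l at 1672 and Rad50 at 1448, and the lowest were Rad51c at 63.3 and Bard1 at 56.9. How the deposited length was defined is not known, and it was shorter than the annotated exons for some genes and longer for others. For Rad51d it was 7705 bases against 3714 of annotated exons, and for Rad54b 7051 against 5782. For Ube2t, the highest per length in Prmt5 fl/fl, it was 1133 against 4836. The levels per length and their order, with Rad51d at 259 in Prmt5 KO and 305 in Prmt5 fl/fl, depend on that definition. The 35 genes lay on 15 chromosomes, 7 of them on chromosome 11.

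The library kit does not mark strand, and exons of 18 of the 35 genes overlap another gene in GENCODE M21. Among the genes with groups apart, Fancl shares 13.7% of its annotated exonic bases with Vrk2, Rad54l 15.36% with Lrrc41 and Fancc 16.43% with the antisense gene Gm16133. The deposited lengths were shorter than these annotated exons, at 1782 bases against 3372 for Fancl, 3076 against 7706 for Rad54l and 4294 against 8359 for Fancc. Which bases were counted, and how reads of shared bases were assigned, is not known. The shared part was 4.85% with Efemp2 for Mus81, 3.41% with Cd3eap for Ercc1 and 3.26% for Fance. For the genes apart with higher Prmt5 KO values it was 8.0% with Lrrc59 for Eme1 and 5.51% with Gm47870 for Fancm. Rad50, Rad51b and Rad51d have no such overlap.

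Other genes of crosslink repair and recombination were read from a list, of which 48 were tested. With all libraries 0 of the 48 passed the limma threshold, 2 were lower and 1 was higher at an unadjusted p below 0.05 (13.6% and 4.58% of all genes tested), and the median log2 fold change was -0.13. Rad52, which anneals DNA strands, was at 662, 683 and 678 in Prmt5 KO, against 1073, 1227 and 1333 in Prmt5 fl/fl. Its groups did not overlap, and the log2 fold change was -0.84 with an SE of 0.15 (limma, adjusted p = 0.0653). With Prmt5 fl/fl replicate 3 left out, Rad52 passed the threshold at -0.77 (limma, adjusted p = 0.0417), as did the helicase gene Wrn at -0.57 (limma, adjusted p = 0.0417), together 2 of the 48 against 2.67% of all genes tested. Wrn is named because it passed there, after its values were seen. At an unadjusted p below 0.05, 9 of the 48 were then lower and 2 higher (16.3% and 7.5% of all genes tested). Slx1b, the nuclease subunit held by SLX4, averaged 814 ± 72.1 in Prmt5 KO and 1182 ± 214 in Prmt5 fl/fl (SD, n = 3 each; log2 fold change -0.53; limma, adjusted p = 0.194). Rev1, a translesion polymerase that bypasses damaged bases, was on the other side, at 3901 ± 193 in Prmt5 KO and 2702 ± 585 in Prmt5 fl/fl (SD, n = 3 each; log2 fold change 0.55; limma, adjusted p = 0.180).

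Many recombination genes are expressed mainly in dividing cells, so genes of the cell cycle were read beside them. Of 30 DNA replication genes and 30 mitosis genes, 0 passed the limma threshold and 0 had an unadjusted p below 0.05 in either direction, with median log2 fold changes of 0.046 and -0.021. Without Prmt5 fl/fl replicate 3 the medians were -0.059 and 0.030, and 3 replication genes and 1 mitosis gene were lower and 1 replication gene higher at an unadjusted p below 0.05, where all genes tested gave 16.3% lower and 7.5% higher. The summed replication level was 263184 to 324033 in Prmt5 KO and 273858 to 318373 in Prmt5 fl/fl libraries, and the summed mitosis level was 221322 to 233539 in Prmt5 KO and 206805 to 252570 in Prmt5 fl/fl libraries. By library, the median log2 difference of the 35 repair genes from their mean over the 6 libraries was -0.11, 0.069 and -0.20 in Prmt5 KO replicates 1 to 3, against 0.17, 0.16 and -0.022 in Prmt5 fl/fl replicates 1 to 3. Prmt5 KO replicate 2 was the highest of the Prmt5 KO libraries for the repair, other pathway, replication and mitosis lists. Its 20 p53 target genes were the lowest of that group, at a median of 0.23 against 0.90 and 0.92. In Prmt5 fl/fl replicates 1 to 3 the p53 targets were at -0.62, -0.70 and -0.83. There replicate 3 was the lowest for the p53 targets and for the repair genes alike. Of the 20 p53 targets, 7 rose in Prmt5 KO (limma, smallest adjusted p = 0.00564; 0.73% of all genes tested were called), and 11 did without Prmt5 fl/fl replicate 3 (limma, smallest adjusted p = 0.00970; 2.67% of all genes tested were called). The part of cell cycle state and of the p53 targets in the values of the repair genes was not tested.

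**Figure D4:**
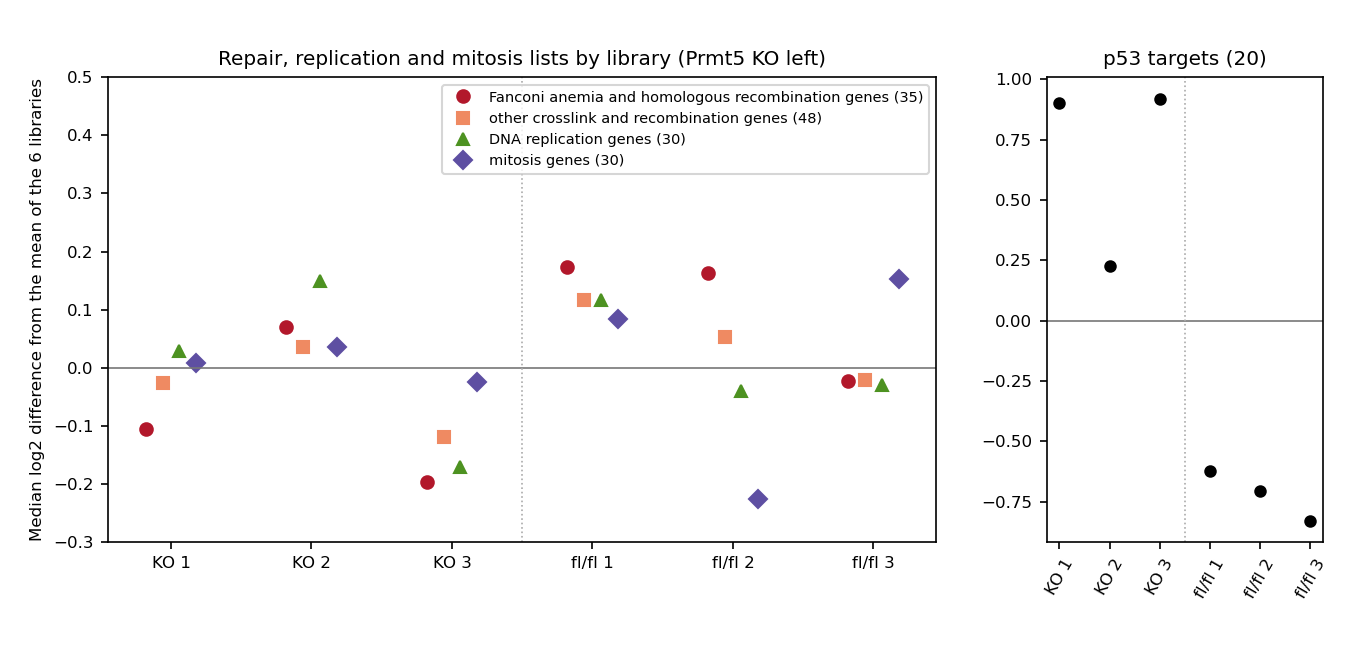
Median log2 difference of each gene list from the mean of the 6 libraries (vertical axis), by library, with Prmt5 KO left and Prmt5 fl/fl right of the dotted line. The left panel holds the 35 repair genes, 48 other genes of the pathway, 30 replication genes and 30 mitosis genes, and the right panel holds 20 p53 targets on its own scale. Repair genes lie at -0.20 to 0.069 in Prmt5 KO and at -0.022 to 0.17 in Prmt5 fl/fl libraries.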

How the data were processed

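Per the labels' protocols, Trizol was used for extraction, the SMART-Seq v4 kit for amplification and the Nextera XT kit for libraries. The submitters' processing notes list STAR, featureCounts and mm10, and the sources used here give neither versions nor the annotation. The authors deposited whole-number counts for Prmt5 fl/fl replicate 2. For the other 5 libraries they deposited a scaled signal, in which counts had been brought to the total of that library, 44704636. Undoing this gave whole reads for 100% of values (tolerance 1e-06).

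Values were taken as log2(value + 1), a mean of 10 or more was required, and genotypes were compared with limma's two-sided moderated test with a mean-variance trend, adjusted by Benjamini-Hochberg over all 14113 genes, threshold 0.05. This scale understates changes of low genes. R 4.3.3, limma 3.58.1, edgeR 4.0.16, DESeq2 1.42.0, Python 3.11.15 and matplotlib 3.10.9 were used, and the fits were tested on simulated data. At these depths the spread between libraries, each a separate pool of mice, limits the precision more than counting error. The members and lists were chosen with earlier results of these data known. All members are named, with values in every library for those with an unadjusted p below 0.05, for the member with the largest fold change in a role group without one, and for Fanca, Fanci, Fancm, Eme1, Slx4 and Brca1, which were added after their values were seen. Coordinates, exon overlaps and GC content came from GENCODE M21 (GRCm38/mm10) by symbol. The alternatives tried were other pseudocounts, filters, scalings and tests, the replicate block, leaving out each library, and 1 added after seeing the data, which centred the log2 values within 20 bins of gene length.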

Additional observations from a re-analysis of the deposited data

How the results depend on the processing

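The count of 0 repair genes past the threshold held under each alternative tried except DESeq2, which called 3, and the number of repair genes lower at an unadjusted p below 0.05, 10 with all libraries, was 4 to 12 when single libraries were left out. It was 5 without Prmt5 KO replicate 1, 4 without Prmt5 KO replicate 3, 6 without Prmt5 fl/fl replicate 2 and 9 with length centring. With other scalings it was 7 with quantile normalization (9.74% of all genes tested), 8 with median-of-ratios size factors (10.1%) and 9 with TMM factors (11.2%). By other tests it was 8 with edgeR (11.3%) and 8 with DESeq2 (10.7%). At an unadjusted p below 0.05, 1 repair gene was higher with median-of-ratios size factors (7.33% of all genes tested), 1 with DESeq2 (8.0%) and 1 with length centring (11.3%). Over all genes limma called 103 (39 higher and 64 lower). The count was 57 with median-of-ratios size factors (35 and 22), 67 with TMM factors (35 and 32), 64 with quantile normalization (38 and 26), 60 with edgeR (34 and 26), 981 with DESeq2 (365 and 616), 419 with length centring (191 and 228) and 3 to 377 with single libraries left out. The median log2 fold change of the repair genes was -0.088, and it was -0.20 to -0.039 with single libraries left out, -0.00056 with median-of-ratios size factors, where the median of all genes was 0.039, and -0.17 with length centring.

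The correlations of deviations from the group means across genes were -0.14, 0.067 and -0.26 for same-numbered libraries. They cannot show that pairing is absent, since the length trend of Prmt5 fl/fl replicate 3 enters the deviations of its whole group. The labels do not say what the numbers mark, so the main fit did not pair the libraries. The fit with the replicate block called 1 gene in all and 0 repair genes, with 8 of them lower at an unadjusted p below 0.05 (10.5% of all genes tested).

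Directions turned for several genes. With other scalings or tests these were genes near 0. Bard1 was at 0.085 with median-of-ratios size factors, 0.061 with TMM factors, 0.10 with quantile normalization, 0.066 with edgeR and 0.091 with DESeq2. Brip1 was at 0.080, 0.055, 0.012, 0.044 and 0.069 in the same order. Xrcc2 was at 0.041 with median-of-ratios size factors, 0.017 with TMM factors, 0.010 with edgeR, 0.035 with DESeq2 and 0.030 with length centring. With length centring Fanci was at -0.037, Rad54b at -0.17 and Blm at -0.033. With single libraries left out the ranges that crossed 0, among them those of Slx4, Brca1 and Fanca with all-library values of 0.65, 0.27 and 0.25, were -0.20 to 0.51 for Fanca, -0.088 to 0.30 for Fancd2, -0.29 to 0.19 for Fanci, -0.15 to 1.09 for Slx4, -0.22 to 0.013 for Ercc4, -0.22 to 0.030 for Fan1, -0.038 to 0.24 for Mre11a, -0.039 to 0.049 for Nbn, -0.15 to 0.51 for Brca1, -0.13 to 0.086 for Bard1, -0.18 to 0.14 for Brip1, -0.21 to 0.11 for Xrcc2, -0.14 to 0.13 for Rad54b and -0.18 to 0.22 for Blm. The cause was not tested.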
